A study of Homo sapiens with 6 samples.

Results

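The genes of the collagen alpha chains were taken from the expression matrix by symbol, as COL, a type number, A and a chain number. There were 37 such genes from 24 collagen types among the 16250 genes listed. They comprised 9 fibrillar genes, 5 of type IV, 4 of type VI and 19 of other types. RNA-seq was done on HK-2 cells, an immortalized line of human proximal tubular epithelial cells (TECs). All 6 libraries came from cells that stably overexpressed NK-1R, the receptor of substance P (SP), from a lentiviral vector after puromycin selection. The 3 SP libraries came from these cells given 20 µM SP for 48 h, and the 3 control libraries from the same cells given PBS. No library came from cells without the vector, so the comparison is of SP with PBS in receptor-overexpressing cells of 1 line.

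Collagens are secreted proteins built from trimers of alpha chains, and each chain carries stretches in which glycine recurs at every 3 residues, written Gly-X-Y. Fibrillar collagens (types I, III, V and others) assemble into the fibrils that scar the fibrotic interstitium. Type IV forms the network of the tubular basement membrane, type VI forms beaded microfilaments, and types such as VII, XVIII, XII and XVI anchor, cap or decorate these structures. Collagen I is a customary readout of a profibrogenic response in TECs.

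The repeat that defines the family is printed for the 3 genes whose transcript level passed the test below. Each run is coding sequence of GRCh38 in the GENCODE 29 annotation, read 5′ to 3′ on the strand of its gene, with the glycine codons of the repeat in capitals.
COL1A1: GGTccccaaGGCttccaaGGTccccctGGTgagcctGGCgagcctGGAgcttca
COL4A2: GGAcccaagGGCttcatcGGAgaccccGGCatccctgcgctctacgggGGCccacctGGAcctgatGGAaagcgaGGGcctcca
COL18A1: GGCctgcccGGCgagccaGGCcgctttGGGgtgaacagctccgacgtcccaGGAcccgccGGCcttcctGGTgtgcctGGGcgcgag

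The COL1A1 run is exon 8 on the minus strand (chr17:50197949-50198002), a 54-base exon that keeps the spacing throughout. The COL4A2 run lies within exon 20 on the plus strand (chr13:110450334-110450417), and the COL18A1 run within exon 12 on the plus strand (chr21:45480745-45480831). In both of these stretches the spacing of the capitals is broken once, as is usual for non-fibrillar chains. Both were cut from their exons around a break, and the COL1A1 exon was chosen for its unbroken spacing. The printed runs therefore do not measure how common breaks are. Over the whole principal transcript, the longest unbroken run of Gly-X-Y was 338 triplets in COL1A1, 66 in COL4A2 and 30 in COL18A1. Across the listed collagen genes it spanned 216 to 343 triplets in the fibrillar genes, 38 to 66 in type IV, 42 to 87 in type VI and 23 to 113 in the others. Among the same genes, coding exons of exactly 54 bases numbered 21 to 33 in each fibrillar gene and 1 to 3 in each type IV gene. They numbered 2 to 3 in each type VI gene and 0 to 28 in the others, with 28 in COL22A1.

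Of the 37 collagen genes, 15 reached an FPKM of 0.5 in 3 or more libraries and were tested, and 22 did not. Since FPKM divides fragments by transcript length and by library total, levels can be set side by side between genes. The 15 comprised 4 fibrillar genes, 2 of type IV, 2 of type VI and 7 of the others. At an FPKM of 0.1 in 3 or more libraries the count was 21, and at an FPKM of 1 it was 14. The summed FPKM of all 37 genes was 615 ± 18.2 for the controls and 587 ± 17.6 with SP, where ± gives the SD and n = 3 here and throughout, and the groups overlapped. This was 0.0862% and 0.0857% of the FPKM of all listed genes.

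Libraries of the same group correlated with r = 0.9903 to 0.9959 across genes on the log2 scale. PC1 (64.8% of variance) set the groups apart, with the first SP library at 12.7 and the other SP libraries at 20.8 and 21.3. TACR1, the gene of NK-1R, had an FPKM of 15.7, 25.8 and 33.0 in control cells and 78.5, 123 and 141 in SP-treated cells. Receptor transcript was therefore not equal between the groups, and its part in the collagen values was not tested. KRT8, KRT18, PAX8 and GGT1, epithelial and tubular genes, had mean FPKM of 632, 301, 103 and 53.5 in control cells. Of the 13 listed markers of proximal tubule and epithelium, 5 did not reach the filter in these cells, namely CUBN, SLC34A1, SLC5A2, ANPEP and CDH1. The listed leukocyte and endothelial markers summed to 113 to 117 in control and 109 to 115 in SP libraries, nearly all of it CD68, a leukocyte gene. PTPRC, another leukocyte marker, lay between 0 and 0.01 in every library. CD68 and CD14 were tested and 0 passed in limma (0 at an unadjusted p under 0.05). Of the endothelial markers, all under the filter, PECAM1 had an FPKM of 0.02, 0.03 and 0.05 in control cells and 0.22, 0.61 and 0.51 with SP, and CDH5 was 0 to 0.03 and 0.05 to 0.1, without overlap for either. VWF lay between 0 and 0.02 in every library, and the groups overlapped. The part of these markers in the collagen values was not tested.

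Chains of types IV and VI were the most abundant. In control cells the order began with COL6A2 at 134 ± 10.9, COL4A2 at 118 ± 3.49, COL6A1 at 88.0 ± 12.1 and COL4A1 at 62.7 ± 5.20. In SP-treated cells COL4A2 came first at 139 ± 6.30, followed by COL6A2 at 117 ± 10.7, COL6A1 at 72.0 ± 7.05 and COL4A1 at 72.0 ± 2.62. COL6A2 was above COL4A2 in 3 of 3 control libraries, and COL4A2 was above COL6A2 in 3 of 3 SP libraries. COL6A1 and COL4A1 did not overlap in control cells and overlapped in SP-treated cells.

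Below these came COL18A1, COL7A1, COL5A1 and COL8A1, with control means between 28.4 and 54.9, and then COL16A1, COL9A2, COL27A1 and COL12A1, with control means between 7.90 and 12.8. COL1A1 and COL8A2 followed at 4.6 ± 0.19 and 4.15 ± 0.421, and overlapped in control cells. COL5A2 was the lowest gene tested. Of the 14 pairs of neighbours in this order, 7 overlapped in control cells and 6 in SP-treated cells, so their order is not larger than the spread between libraries.

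SP and control cells were compared to ask which collagen genes moved with SP. COL4A2, a chain of the basement membrane network, was higher in SP-treated cells. COL1A1, the major chain of collagen I, and COL18A1, the basement membrane chain from which endostatin is cut, were lower. Thus 1 of 15 tested collagen genes was higher and 2 were lower at an adjusted p under 0.05 (limma on log2(FPKM + 1)). Over all 12127 genes tested the shares were 8.57% higher and 12% lower, 20.6% in all, and the collagen share in this fit was 20%. With the replicate number as a block, 6 collagen genes were lower and 1 was higher, against 13.1% lower and 9.76% higher over all genes tested. No label pairs the libraries by number, and the pairing rests on correlations in these same data. The median log2 fold change of the 15 genes was -0.04, against -0.05 over all genes tested. On the log2(FPKM + 1) scale the tested collagen genes ran from -0.73 to 0.41, so none reached 2-fold there, which 1.59% of genes did at an adjusted p under 0.05. As a ratio of mean FPKM, COL5A2 was at 2.03 and the other tested genes were under 2-fold. At an unadjusted p under 0.05, 4 collagen genes were higher and 4 were lower. The share over all genes is not given at that threshold, and whether these counts are unusual was not tested. In these bulk libraries, fewer cells of a kind and less RNA per cell cannot be told apart.

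The FPKM of COL4A2, COL4A1 and COL5A2 was above all control libraries in every SP library, and that of COL18A1, COL1A1 and COL5A1 was below. The groups overlapped for the remaining 9 genes. Over all genes tested, 15.9% had every SP library above and 26.1% had every SP library below the control libraries.

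**Figure D1:**
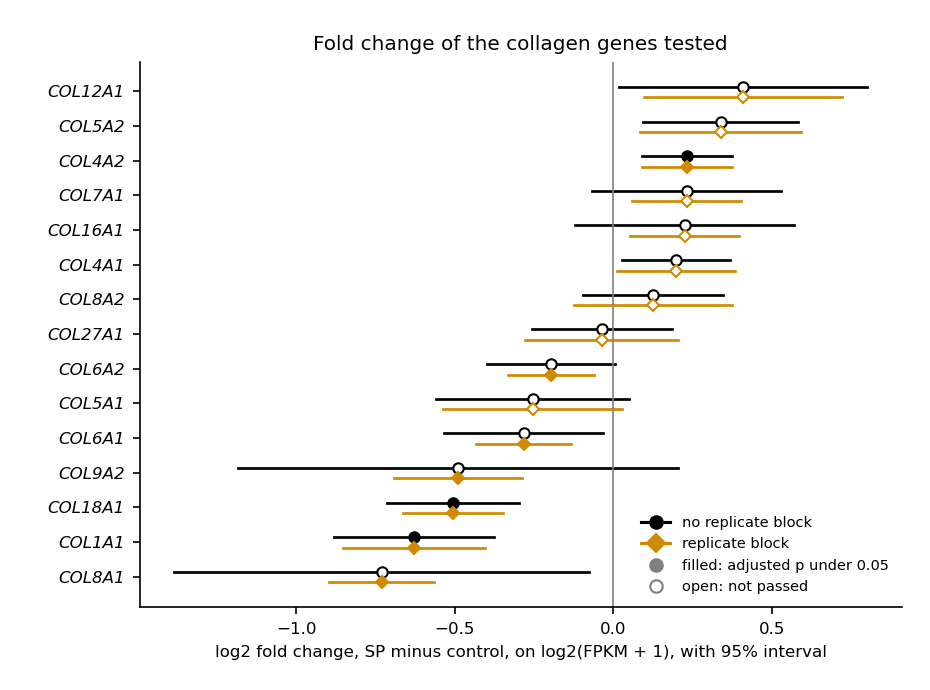
Log2 fold change of SP-treated over control cells for the 15 tested collagen genes, on the log2(FPKM + 1) scale and ordered by fold change. Bars are 95% confidence intervals from limma. Circles give the fit without the replicate block and diamonds the fit with it, filled where the adjusted p was under 0.05. COL4A2 lies above 0, COL18A1 and COL1A1 lie below 0, and these 3 passed in both fits. COL6A1, COL6A2, COL8A1 and COL9A2 lie below 0 and passed only with the block. That block rests on a pairing that the labels do not give.

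Among the fibrillar genes, COL1A1 fell, and 3 of the 4 tested did not pass. COL1A1 had an FPKM of 4.81, 4.55 and 4.44 in control cells and 3.09, 2.70 and 2.14 in SP-treated cells. Each SP library was below each control library, and the mean was 42.5% lower. The log2 fold change was -0.63 (SE 0.11, adjusted p = 0.00727 from limma). This call held in the 14 alternatives with a test at the same threshold, with adjusted p from 0.0061 to 0.033. COL1A1 lies on the minus strand of chromosome 17 (chr17:50183289-50201632), and no protein-coding gene overlaps it on the other strand.

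COL1A2, the partner that joins COL1A1 in the collagen I heterotrimer, was listed at 0 in 5 of 6 libraries and at 0.01 in the third SP library. COL3A1, the other major chain of interstitial fibrils, lay between 0.02 and 0.11. Of the chains of collagen I, COL1A1 alone could be tested. Markers of fibroblasts and pericytes were examined beside it, since these cells express much collagen I. Their summed FPKM was 20.5 to 26.4 in control cells and 13.7 to 16.7 in SP-treated cells, and 2 of 9 listed markers reached the filter, LUM and RGS5. RGS5 did not pass (0.697 ± 0.0681 and 0.61 ± 0.111, adjusted p = 0.595 from limma), and the difference in the sum was mainly that of LUM. LUM, which encodes lumican, had an FPKM of 20.8 ± 3.42 in control cells and 13.9 ± 1.33 in SP-treated cells. PDGFRA, PDGFRB, DCN and FAP had mean FPKM of 0.0367, 0.05, 0.11 and 0.01 in control cells. ACTA2, the gene of α-SMA, had a mean FPKM of 0.413 in control cells and 0.33 in SP-treated cells.

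Both listed chains of collagen V were tested, and they stood on opposite sides of 0. COL5A1, which regulates fibril diameter, had an FPKM of 27.97, 28.87 and 41.19 in control cells and 26.4, 27.9 and 26.3 in SP-treated cells. The third control library stood well above the others, and the log2 fold change of -0.25 did not pass (adjusted p = 0.204 from limma). COL5A2, its partner, had an FPKM of 0.32, 0.36 and 0.38 in control cells and 0.84, 0.80 and 0.51 in SP-treated cells. It was the member just inside the filter and reached 0.5 only in the SP libraries, so its presence among the tested genes depends on the group in which it was high. Its log2 fold change was 0.34 (SE 0.11, adjusted p = 0.056 from limma), and 0.83 with a pseudocount of 0.1. It passed without the filter (adjusted p = 0.0434) and without the variance trend (adjusted p = 0.0388). COL27A1, a fibrillar chain of cartilage and other matrices, had a log2 fold change of -0.04, whose sign turned under equal FPKM totals (0.02).

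Among the type IV genes, COL4A2 rose and COL4A1 did not pass, with every SP library above every control library for both. COL4A2 had an FPKM of 121, 117 and 115 in control cells and 140, 144 and 132 in SP-treated cells. The mean was 1.18 times that of control cells, with a log2 fold change of 0.23 (SE 0.06, adjusted p = 0.0323 from limma). This call was lost without the second control library (adjusted p = 0.109), the third control library (0.06), the first SP library (0.08) or the second SP library (0.141), and without the variance trend (0.0555). Without those libraries its log2 fold change was 0.229, 0.214, 0.223 and 0.206, in the same order. Calls over all genes in that order were 1190, 2530, 1923 and 900, against 2496 with all libraries. COL4A1 had an FPKM of 66.9, 56.9 and 64.4 in control cells and 70.6, 75.0 and 70.3 in SP-treated cells. Its log2 fold change of 0.20 was of like size but did not pass (SE 0.08, adjusted p = 0.0947 from limma). COL4A1 and COL4A2 are the chains of the ubiquitous type IV trimer, and their FPKM ratio, COL4A2 over COL4A1, was 1.88 ± 0.151 in control cells and 1.93 ± 0.0591 in SP-treated cells.

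COL4A1 and COL4A2 lie head to head on chromosome 13. COL4A1 is on the minus strand (chr13:110148963-110307233) and COL4A2 on the plus strand (chr13:110305812-110513209), and their annotated spans overlap. COL4A2 also overlaps antisense RNAs. Without the strand setting of the counting, reads in the shared stretches cannot be assigned to 1 of these genes, and this bears on the values and the ratio above. In the RefSeq promoter table for GRCh38.p14 their starts are 126 bases apart. A stretch of 25 bases between these starts is shown with its CCAAT box in capitals, read on the plus strand (chr13:110307169-110307193), because it lies upstream of both RefSeq starts. By the GENCODE 29 spans it lies inside both genes.
COL4A1 and COL4A2: gccgagctccCCAATttgttggcgc

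Motif letters were sought on either strand of the 250 bases before a start. CCAAT was present at 37.0% of 27305 genes with a promoter entry, at 10 of the 27 collagen genes that had one, and at 2 of the 11 of these that were tested, COL4A1 and COL4A2. GGGCGG, the core of the GC box, was present at 46.2% of all these genes, at 17 of the 27 collagen genes and at 11 of the 11 tested. The AP-1 letters TGANTCA were present at 8.1% of all genes, at 1 of the 27 and at none of the 11. The tested collagen genes are expressed ones, whereas the percentages cover all genes, expressed or not. COL1A1, COL5A2, COL6A1 and COL8A1 were not matched.

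The remaining type IV genes were low. COL4A5 had an FPKM of 0.27, 0.45 and 0.47 in control cells and 0.27, 0.17 and 0.12 in SP-treated cells, and the groups overlapped. COL4A4 and COL4A6, chains of the specialised glomerular and tubular networks together with COL4A5, lay between 0 and 0.03 in every library.

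The type VI genes stood on the other side of 0, and neither passed over all 6 libraries without a block on the replicate number. COL6A2 had an FPKM of 123, 134 and 145 in control cells and 105, 119 and 127 in SP-treated cells. COL6A1 had an FPKM of 75.2, 89.7 and 99.2 in control cells and 65.8, 70.4 and 79.7 in SP-treated cells. Libraries of the same number held the same rank in both groups, and the highest SP library overlapped the control libraries for both genes. The log2 fold change was -0.20 for COL6A2 (adjusted p = 0.142 from limma) and -0.28 for COL6A1 (adjusted p = 0.102). With the replicate number as a block, COL6A2 had an adjusted p of 0.0493 and COL6A1 of 0.0217. That pairing of libraries is not given by the labels. The FPKM of each SP library was 0.856 to 0.885 times that of its same-numbered control library for COL6A2 and 0.785 to 0.875 times for COL6A1. Without the first control library, COL6A1 passed also without the block (adjusted p = 0.0296). COL6A3, the long chain that joins COL6A1 and COL6A2 in the classical type VI monomer, lay between 0.01 and 0.06, and COL6A6, which can stand in for it, between 0 and 0.02.

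**Figure D2:**
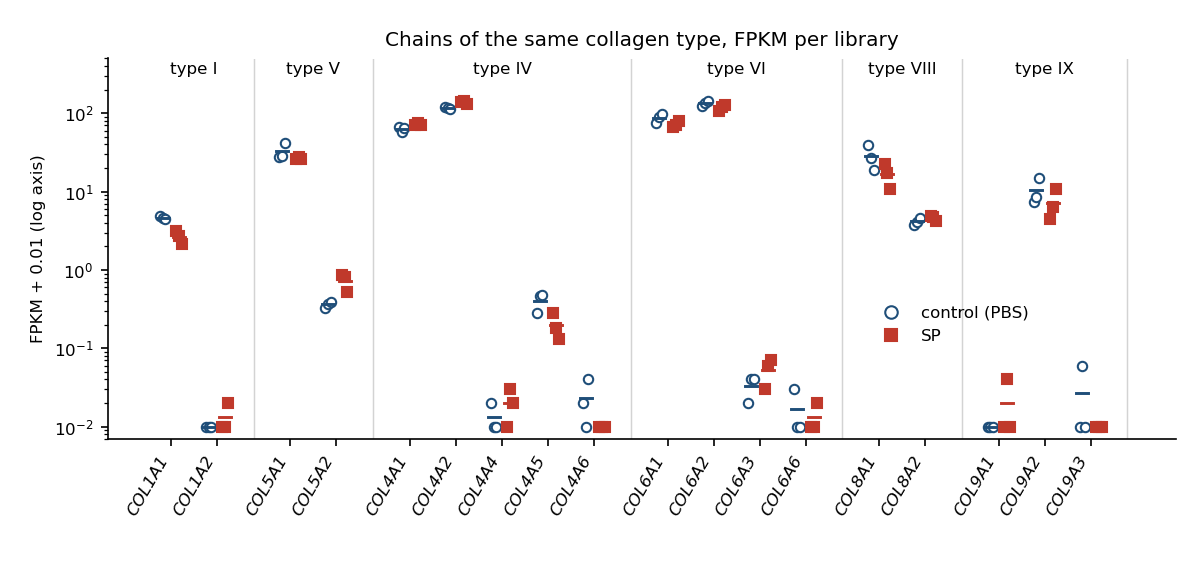
FPKM + 0.01 on a log axis in each library for the listed chains of collagen types I, V, IV, VI, VIII and IX, with control cells as open circles, SP-treated cells as filled squares and short lines at the group means. COL1A2, COL6A3, COL9A1 and COL9A3 lie below 0.1 beside partner chains that lie well above it.

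Among the 7 tested genes of other types, COL18A1 fell and 6 did not pass. COL18A1 had an FPKM of 61.3, 54.8 and 48.7 in control cells and 40.0, 39.2 and 35.7 in SP-treated cells. Every SP library was below every control library, and the mean was 30.3% lower. The log2 fold change was -0.51 (SE 0.09, adjusted p = 0.00799 from limma), and the call held in the same 14 alternatives, with adjusted p from 0.0036 to 0.0338. COL18A1 lies on the plus strand of chromosome 21 (chr21:45405137-45513720) and overlaps SLC19A1 and antisense RNAs on the other strand. The sources used here do not say how the counting treated strand, so reads of these genes cannot be told apart. COL15A1, the closest relative of COL18A1, lay between 0.12 and 0.39.

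COL8A1, a short-chain collagen of vessel walls and mesangium, had the log2 fold change of largest size among the tested collagen genes with a pseudocount of 1. With a pseudocount of 0.1 it was -0.76, and COL5A2 (0.83) and COL1A1 (-0.79) were larger in size. Its FPKM was 38.9, 27.2 and 19.1 in control cells and 22.4, 17.1 and 10.7 in SP-treated cells. The spread within each group was wide, the groups overlapped, and the log2 fold change of -0.73 did not pass (SE 0.29, adjusted p = 0.104 from limma). The SP library was 0.577, 0.628 and 0.560 times its same-numbered control library. With the replicate number as a block the SE was 0.07 and the adjusted p was 0.00114. This pairing was taken from these same data, so the blocked call is weakly founded. COL8A1 also passed without the third control library, with a log2 fold change of -0.98 (adjusted p = 0.0424). COL8A2, its partner, had an FPKM of 4.15 ± 0.421 in control cells and 4.61 ± 0.370 with SP, a log2 fold change of 0.13 that did not pass (adjusted p = 0.376). The FPKM ratio of COL8A1 to COL8A2 was 10.4, 6.60 and 4.17 in control cells and 4.54, 3.65 and 2.54 in SP-treated cells, and the groups overlapped.

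COL9A2, a chain of the fibril-associated collagen IX, passed with the block and not without it. Its FPKM was 7.43, 8.57 and 15.1 in control cells and 4.44, 6.33 and 10.7 in SP-treated cells, with the third library highest in both groups. The log2 fold change was -0.49 (adjusted p = 0.274 from limma), and with the block the adjusted p was 0.00948. COL9A1 and COL9A3, the other chains of collagen IX, lay between 0 and 0.05. The lower genes that the block added were COL6A1, COL6A2, COL8A1 and COL9A2. These added calls rest on a pairing that the labels do not give.

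The fibril-associated chains COL12A1 and COL16A1 had higher means in SP-treated cells and did not pass. COL12A1 had an FPKM of 8.63, 7.16 and 7.91 in control cells and 14.1, 11.1 and 7.95 in SP-treated cells. The third SP library lay within the control range, and the log2 fold change was 0.41 (adjusted p = 0.124 from limma). Without that library it was 0.61 and passed (adjusted p = 0.0227). COL16A1 had an FPKM of 15, 12.81 and 10.49 in control cells and 17.23, 15.98 and 12.11 in SP-treated cells (adjusted p = 0.31). COL7A1, the anchoring fibril chain of stratified epithelia, had a mean FPKM of 45.4 ± 6.23 in control cells and 53.5 ± 8.49 in SP-treated cells (adjusted p = 0.236).

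COL13A1, a transmembrane collagen of cell adhesions, was the member just outside the filter, with 0.5 reached in 2 libraries. Its FPKM was 0.05, 0.06 and 0.02 in control cells and 0.40, 0.69 and 0.62 in SP-treated cells. The groups did not overlap, and the SP mean was 13.2 times the control mean. Values this low carry 2 decimals, so the control mean rests on a few units of the last digit. When every listed gene was fitted without the filter, COL13A1 had a log2 fold change of 0.59 (SE 0.07, adjusted p = 0.00993 from limma). Of the 37 collagen genes, that fit called 3 higher, COL4A2, COL5A2 and COL13A1, and 2 lower. Over all 16250 genes listed it called 1912, counting both directions. The other 21 genes under the filter lay below 0.5 in every library. COL14A1, the nearest of them, had an FPKM of 0.39 ± 0.0529 in control cells and 0.273 ± 0.119 in SP-treated cells.

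Summed by class, the FPKM of the type IV genes was 189, 174 and 179 in control cells and 211, 219 and 202 in SP-treated cells, so the groups did not overlap. The fibrillar genes summed to 42.4, 43.0 and 56.8 in control cells and 40.8, 40.5 and 37.8 in SP-treated cells, again without overlap. Most of the fibrillar sum was COL5A1. The type VI sum was 222 ± 22.9 and 189 ± 17.6, and that of the others was 165 ± 9.17 and 148 ± 12.2, both with overlap. As a share of the collagen FPKM, type IV took 29.4% ± 1.62 in control cells and 35.9% ± 1.04 in SP-treated cells, and every SP library was above every control library. The shares of the other 3 classes overlapped. These sums were not tested.

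**Figure D3:**
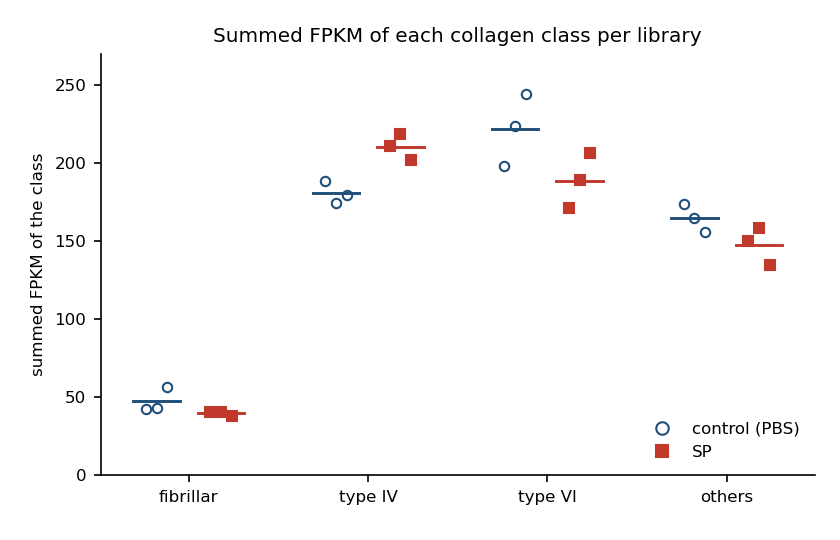
Summed FPKM of the fibrillar, type IV, type VI and other collagen genes in each library, with control cells as open circles, SP-treated cells as filled squares and lines at the group means of 3 libraries. The type IV sums of the SP libraries (202 to 219) lie above those of the control libraries (174 to 189).

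Genes that make, export, trim and bind collagen were taken from 4 lists. Of 17 genes of folding and modification in the endoplasmic reticulum, 15 were tested, 4 rose and 1 fell (8.57% and 12% over all genes tested), with a median log2 fold change of 0.20. PLOD3, a lysyl hydroxylase and glycosyltransferase of collagen, rose from an FPKM of 68.5 ± 2.90 to 89.2 ± 4.85 (adjusted p = 0.00747 from limma). P3H2, a prolyl 3-hydroxylase active on type IV collagen, rose from 42.5 ± 6.42 to 62.3 ± 0.350 (adjusted p = 0.00799). PLOD2, the lysyl hydroxylase of the telopeptides, rose from 116 ± 9.39 to 158 ± 17.1 (adjusted p = 0.0153). P4HA2, a catalytic subunit of prolyl 4-hydroxylase, fell from 53.7 ± 6.25 to 37.5 ± 4.40 (adjusted p = 0.0157). The call of PLOD2 was lost without the second control or the second SP library (adjusted p = 0.0565 and 0.0692), and that of P4HA2 without the second control library (0.0565). Over all genes, 1190 and 900 were called without the second control and the second SP library, against 2496 with all libraries. SERPINH1, the collagen chaperone HSP47, was named after its values were seen and did not pass (251 ± 21.7 and 213 ± 6.22, adjusted p = 0.0567).

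Of 17 listed genes of procollagen export and processing, 13 were tested, 3 rose and 3 fell (8.57% and 12% over all genes tested), with a median log2 fold change of 0.10. FURIN, a proprotein convertase, rose from an FPKM of 16.6 ± 1.67 to 25.8 ± 0.854 (adjusted p = 0.00284 from limma). BMP1, the protease that removes the C-propeptide of fibrillar procollagens, fell from 61.8 ± 2.62 to 45.8 ± 1.75 (adjusted p = 0.00385). PCOLCE2, an enhancer of that cleavage, fell from 10.02 ± 1.12 to 7.37 ± 0.164 (adjusted p = 0.02). KLHL12, the ubiquitin ligase adaptor of large export carriers, fell from 13.4 ± 1.04 to 9.95 ± 0.156 (adjusted p = 0.0112). Under equal FPKM totals the calls of PCOLCE2 (adjusted p = 0.097) and KLHL12 (0.0623) were lost. Leaving out 1 library also ended them, for PCOLCE2 the second control (0.0637) or the first or second SP library (0.0527 and 0.0803), and for KLHL12 the second SP library (0.051). Calls over all genes without these libraries were 1190, 1923 and 900, against 2496 with all libraries. Under equal FPKM totals they were 1794.

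Of 10 collagen receptor genes, 5 were tested and 3 rose (8.57% over all genes tested), with a median log2 fold change of 0.35. ITGA2, the alpha chain of a collagen-binding integrin, had an FPKM of 1.13, 1.69 and 2.26 in control cells and 5.05, 5.53 and 4.84 in SP-treated cells. Its log2 fold change was 1.21 (SE 0.15, adjusted p = 0.00184 from limma), the only one of these lists past a 2-fold change. ITGA1, the alpha chain of another collagen-binding integrin, rose from 2.55 ± 0.327 to 4.43 ± 0.641 (adjusted p = 0.009). MRC2, an endocytic receptor for collagen, rose from 37.6 ± 2.69 to 48.1 ± 3.62 (adjusted p = 0.0198), and lost its call without the second control (0.078) or the second SP library (0.0878). Over all genes those fits called 1190 and 900, against 2496 with all libraries.

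Of 14 genes that bind collagen and regulate its fibrils, 7 were tested and 3 fell (12% over all genes tested), with a median log2 fold change of 0.01. TGFBI, a TGF-β-induced matrix protein that binds collagens, had an FPKM of 875, 750 and 1004 in control cells and 515, 419 and 506 in SP-treated cells, without overlap. Its log2 fold change was -0.86 (SE 0.12, adjusted p = 0.00314 from limma). SPARC, a collagen-binding matricellular protein, fell from 490.5 ± 52.4 to 320.3 ± 15.5 (adjusted p = 0.00319). LUM fell as given above (adjusted p = 0.0161). At an unadjusted p under 0.05, 0 genes of this list were higher and 0 receptor genes were lower. Adjusted calls in these directions were also 0 without the variance trend. With 7 and 5 genes tested a count of 0 says little, and the share over all genes at the unadjusted threshold is not given. FN1, which encodes fibronectin, was named after its values were seen and did not pass (2597 ± 570.5 and 3060 ± 423.8, adjusted p = 0.318).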

How the data were processed

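The 6 libraries were paired-end RNA-seq of NK-1R-overexpressing HK-2 cells. Reads were aligned by the authors to GRCh38.p13 with HISAT, gene levels were estimated with RSEM, and DEGs were called with DESeq2. HISAT2, Bowtie2, GRCh38.p13 and hg38 stand in the submitters' processing notes. The authors deposited FPKM, rounded to 2 decimals, with 1 value per gene and library and no pooling. Depth is unknown, because FPKM keeps no counts, and strand handling was not stated.

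A filter of FPKM 0.5 or more in 3 or more libraries kept 12127 of 16250 genes, which were tested as log2(FPKM + 1) in limma 3.58.1 (R 4.3.3), with a variance trend and Benjamini-Hochberg adjustment over all genes tested. A call was an adjusted p under 0.05, to which the DEG threshold of the study adds a 2-fold change (1 on the log2 scale). Nothing in the labels says that libraries came from separate cultures, so the p-values reflect only the spread of these libraries, which may be technical.

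Members, classes and gene lists were chosen with earlier results of these data known, so lists are described by counts and medians. Every collagen gene that passed the filter is named, and in each list the 4 called genes with the smallest p. Fold changes on this scale understate changes of low genes. Same-numbered libraries deviated together from their group means (correlations 0.165, 0.223 and 0.17), which is the only source of the pairing. Libraries of unlike number had correlations from -0.148 to -0.036. Deviations from a mean of 3 libraries are not independent, so the pairing is weakly founded and rests on these same data. A blocked fit on the replicate number was therefore run only beside the main fit. Other alternatives were the pseudocount, the filter, the trend, 3 scalings and each library left out. Positions are from GENCODE 29 on GRCh38. Promoters are from RefSeq on GRCh38.p14, and 27 of 37 collagen genes were matched. LRP2 was not analysed here. Values after ± are SDs over 3 libraries.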

Additional observations from a re-analysis of the deposited data

How the results depend on the processing

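The tests rest on 3 libraries a group and on FPKM of unknown depth, so small changes of low genes are the least certain. No count test was run, since the values are not counts. COL1A1 and COL18A1 passed under the 14 alternatives that kept the threshold on adjusted p, and failed when the 2-fold threshold was added. The directions of 14 of the 15 tested collagen genes held in each alternative that gave a fit, which for COL5A2 left out the FPKM minimum of 1 and the omission of any SP library. The sign of COL27A1, near 0, turned under equal FPKM totals (0.02), under median-ratio scaling (0.01), without the third control library (0.038) and without the third SP library (0.007). With 1 library left out its log2 fold change ran from -0.102 to 0.038. The cause was not tested.

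The count of higher collagen genes was 1, and it was 3 without the filter, where more genes could be called, 0 to 2 with 1 library left out, and 0 with the 2-fold threshold added. The count was also 1 without the variance trend, but the gene was COL5A2 and not COL4A2. With the third SP library left out the 2 genes were COL4A2 and COL12A1. The count of lower collagen genes was 2, and it was 6 with the replicate block, 2 to 3 with 1 library left out, and 0 with the 2-fold threshold added. Over all genes, calls in both directions were 2496 with all libraries and 900 to 2530 with 1 library left out. They were 2773 with the replicate block, 2272 without the variance trend, 1912 without the filter and 193 with the 2-fold threshold added. The replicate block changed no other call among the tested collagen genes or the called genes named from the 4 lists. Without any 1 SP library COL5A2 fell below the filter, and 14 genes were fitted.

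In the list of folding genes, 2 to 6 were higher and 0 to 2 were lower with 1 library left out, against 4 and 1 over all libraries. In that list 6 were higher with the replicate block and under median-ratio scaling, and 2 were lower under quantile normalization. In the list of export genes, 1 to 4 were higher and 1 to 3 were lower with 1 library left out, 1 was higher without the filter, and 1 was lower under equal FPKM totals. Calls over all genes ran from 900 to 2530 with 1 library left out, against 2496 with all libraries. They were 2197 under median-ratio scaling, 2482 under quantile normalization and 1794 under equal FPKM totals. Their split by direction is not given here. These list counts were chosen as results after seeing the data. The causes were not tested.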
